A study of Ovis aries with 12 samples.

Results

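The proteasome genes were followed across longissimus dorsi, a loin muscle that runs along the spine, in 12 lambs. Members were all genes whose single symbol in the array's annotation begins with PSMA, PSMB, PSMC, PSMD, PSME, PSMF or PSMG, with the brightest probe set standing for a gene that had several. The rule used no difference between groups. It found 40 genes on 46 probe sets, of 9155 genes with a single symbol and 24016 probe sets that are no controls. By role they were 13 subunits of the standard core (PSMA1, PSMA3 to PSMA7 and PSMB1 to PSMB7), 3 inducible core subunits (PSMB8, PSMB9 and PSMB10), 6 cap ATPases (PSMC1 to PSMC6), 7 other cap subunits (PSMD1, PSMD2, PSMD4, PSMD6, PSMD11, PSMD13 and PSMD14), 3 activators (PSME1, PSME2 and PSME4), the inhibitor PSMF1 and 6 assembly chaperones (PSMD5, PSMD9, PSMD10, PSMG1, PSMG2 and PSMG3). The last member, PSME3IP1, matches the rule by its letters but encodes a partner protein of an activator and not a subunit, so it was kept apart. PSMA2, PSMA8, PSMB11, PSMD3, PSMD7, PSMD8, PSMD12, PSME3 and PSMG4 were not analysed here.

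The lambs fell into 6 groups. Callipyge lambs carried the genotype +/CLPG and were 10, 20 or 30 days old, and normal lambs carried +/+ and were 10, 20 or 30 days old. Each group held 2 lambs with 1 array each, and the lambs nursed until shortly before death. Callipyge is an inherited muscle overgrowth whose visible form appears in the weeks after birth, and the study sampled the period of its onset.

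The proteasome is the barrel-shaped protease that degrades proteins tagged with ubiquitin. Alpha subunits (PSMA genes) form the outer rings of the core and its gate, beta subunits (PSMB genes) form the inner rings and hold the cutting sites, and the cap recognises the tagged protein, removes the tag and, by its ATPases, unfolds and feeds the chain into the core. Activators can take the place of the cap, interferon-inducible beta subunits can take the place of the standard cutting subunits, and dedicated chaperones build the particle. In skeletal muscle the ubiquitin-proteasome system carries much of the breakdown of contractile proteins, and in rodents subunit genes are known to be induced together in several forms of muscle wasting.

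The probes were designed on cattle sequence and the RNA was ovine, and precision is limited by the number of arrays. The deposited intensities were scaled to a common trimmed mean, and all values below are scaled signals or differences of log2(scaled signal + 16). Pairs of arrays correlated at 0.953 to 0.970. All 40 members passed the filter on dim probe sets, which kept 12008. The median SD between lambs of a group was 0.17 for the members, against 0.24 for all tested probe sets (log2). The standard error of a member's genotype difference ran from 0.09 to 0.19, so half-widths of the 95% interval had a median of 0.24 (log2). An earlier look at these data had found the replicate 2 arrays of both genotypes at 30 days apart from the rest. Values without both are given for several results, but for few of the genotype differences at 30 days. Muscle fibre markers summed to 63627 to 72572 in callipyge lambs and 58294 to 74703 in normal lambs over 9 measured genes, and none was listed at 0 on any array. From 10 to 30 days 2 of these 9 had a difference above 0 (50.4% of all tested), with a median of -0.13. From 20 to 30 days it was 1 of 9 (54%), with a median of -0.10, and 0 were called at either. Their part in the members' changes with age was not tested. Because whole muscle was measured, fewer cells of a type and less RNA per cell cannot be told apart.

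Most proteasome genes lay slightly above normal in callipyge muscle, and no single difference passed the test. Averaged over ages, 34 of 40 members (85%) had a difference above 0, against 47.5% of all tested probe sets. The median difference of the members was 0.10, against -0.01 for all tested probe sets (log2). By limma with Benjamini-Hochberg adjustment over all tested probe sets, 0 members rose (0.566% of all tested) and 0 fell (0.316%). At an unadjusted p below 0.05, 6 members were higher (5.81% of all tested) and 0 were lower (5.95%). These 6 were the core subunits PSMB7 and PSMA5, the cap subunits PSMD14 and PSMD1, and the cap ATPases PSMC2 and PSMC6. Leaving out 1 array moved the members' median to between 0.088 and 0.18, and it exceeded 0.15 without callipyge 10 days replicate 2, callipyge 30 days replicate 1, normal 10 days replicate 2, normal 20 days replicate 2 or normal 30 days replicate 2. Without both replicate 2 arrays at 30 days it was 0.14, with 32 members above 0. The 6 members below 0 were PSMA3, PSMB2, PSMD2, PSME1, PSMF1 and PSME3IP1.

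The same direction at every age was found for 20 of 40 members above normal (16.2% of all tested) and for 1 member, PSMB2, below normal (17.3%). In 2 members, PSMA5 and PSMD14, each of the 6 callipyge lambs exceeded both age-matched normal lambs (1.84% of all tested). For 0 members were all 6 below them (1.47%). For 0 members did the lowest callipyge lamb lie above the highest normal lamb of any age (0.683%), or the highest callipyge lamb below the lowest normal lamb (0.35%).

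**Figure D1:**
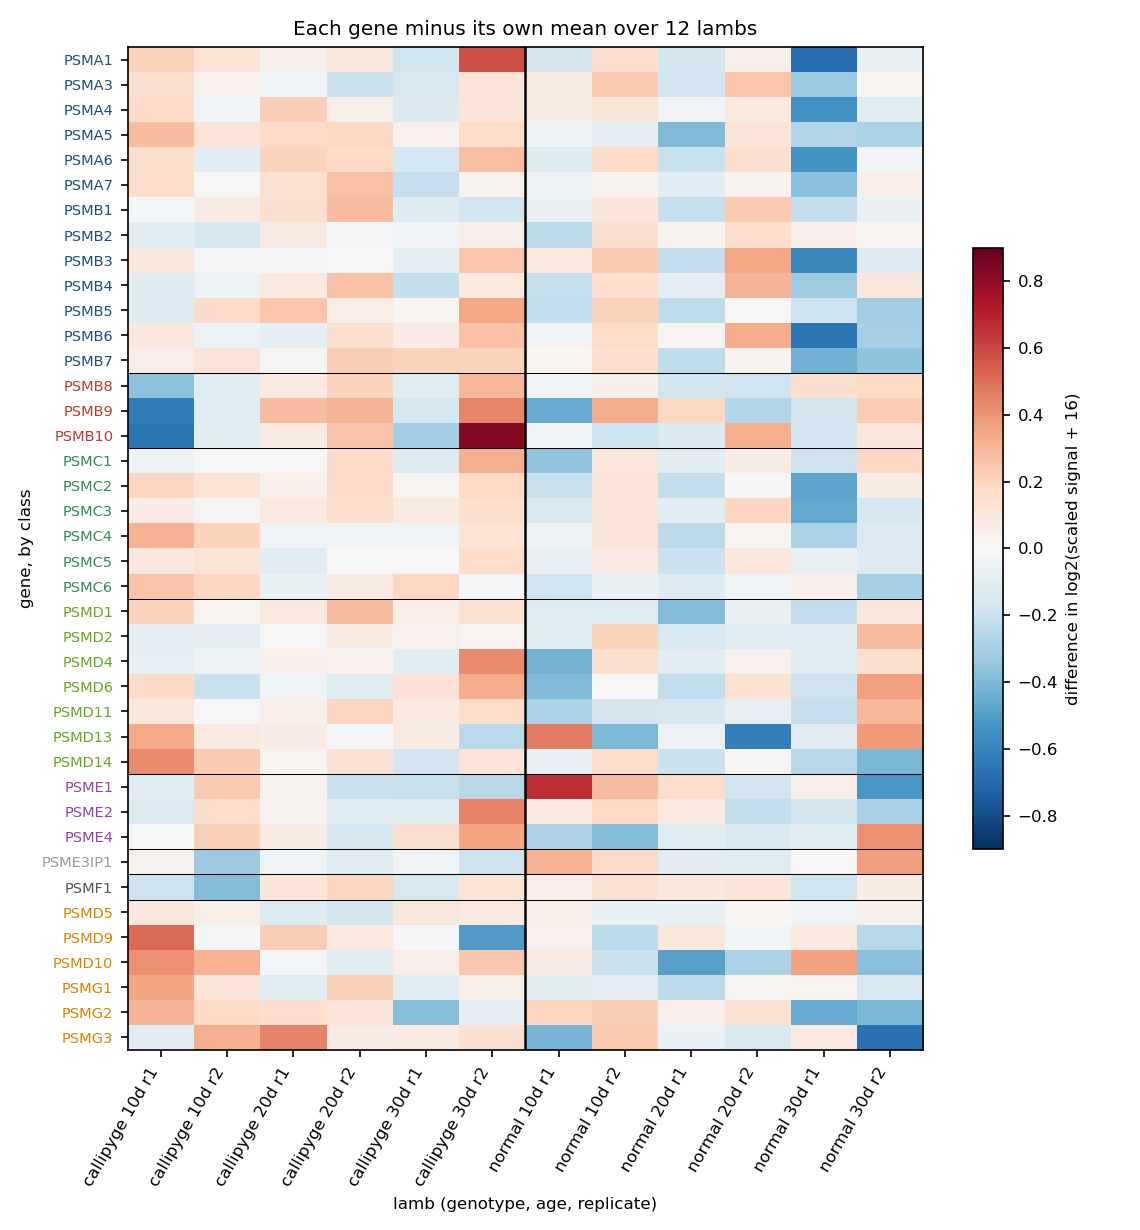
Each of the 40 members (rows, grouped by role) in each of the 12 lambs (columns, callipyge left of normal, by age and replicate), as the log2 signal minus that gene's own mean over all lambs. Of the 40 members, 33 lay above their own mean in callipyge 30 days replicate 2, against 8 in normal 20 days replicate 1 and 8 in normal 30 days replicate 1.

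The number of members above their own mean differed between lambs of one group as well as between genotypes. In callipyge lambs it was 26 and 23 at 10 days, 27 and 29 at 20 days, and 16 and 33 at 30 days. In normal lambs it was 13 and 29 at 10 days, 8 and 24 at 20 days, and 8 and 19 at 30 days. The genotypes overlapped, and replicates were far apart in normal lambs at each age and in callipyge lambs at 30 days. The median of all members relative to their own means was 0.06 ± 0.06 in callipyge lambs and -0.04 ± 0.11 in normal lambs (log2, SD, n = 6 each). The 2 arrays with the fewest members above their mean were also those with the highest trimmed mean before scaling, 94.3 and 105.7, against 55.7 to 86.5 for the other 10. The part of array brightness in the genotype difference was not tested. Without scaling, the median difference was -0.09 for members and -0.19 for all tested probe sets, and the members lay 0.10 above all tested probe sets (log2).

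**Figure D2:**
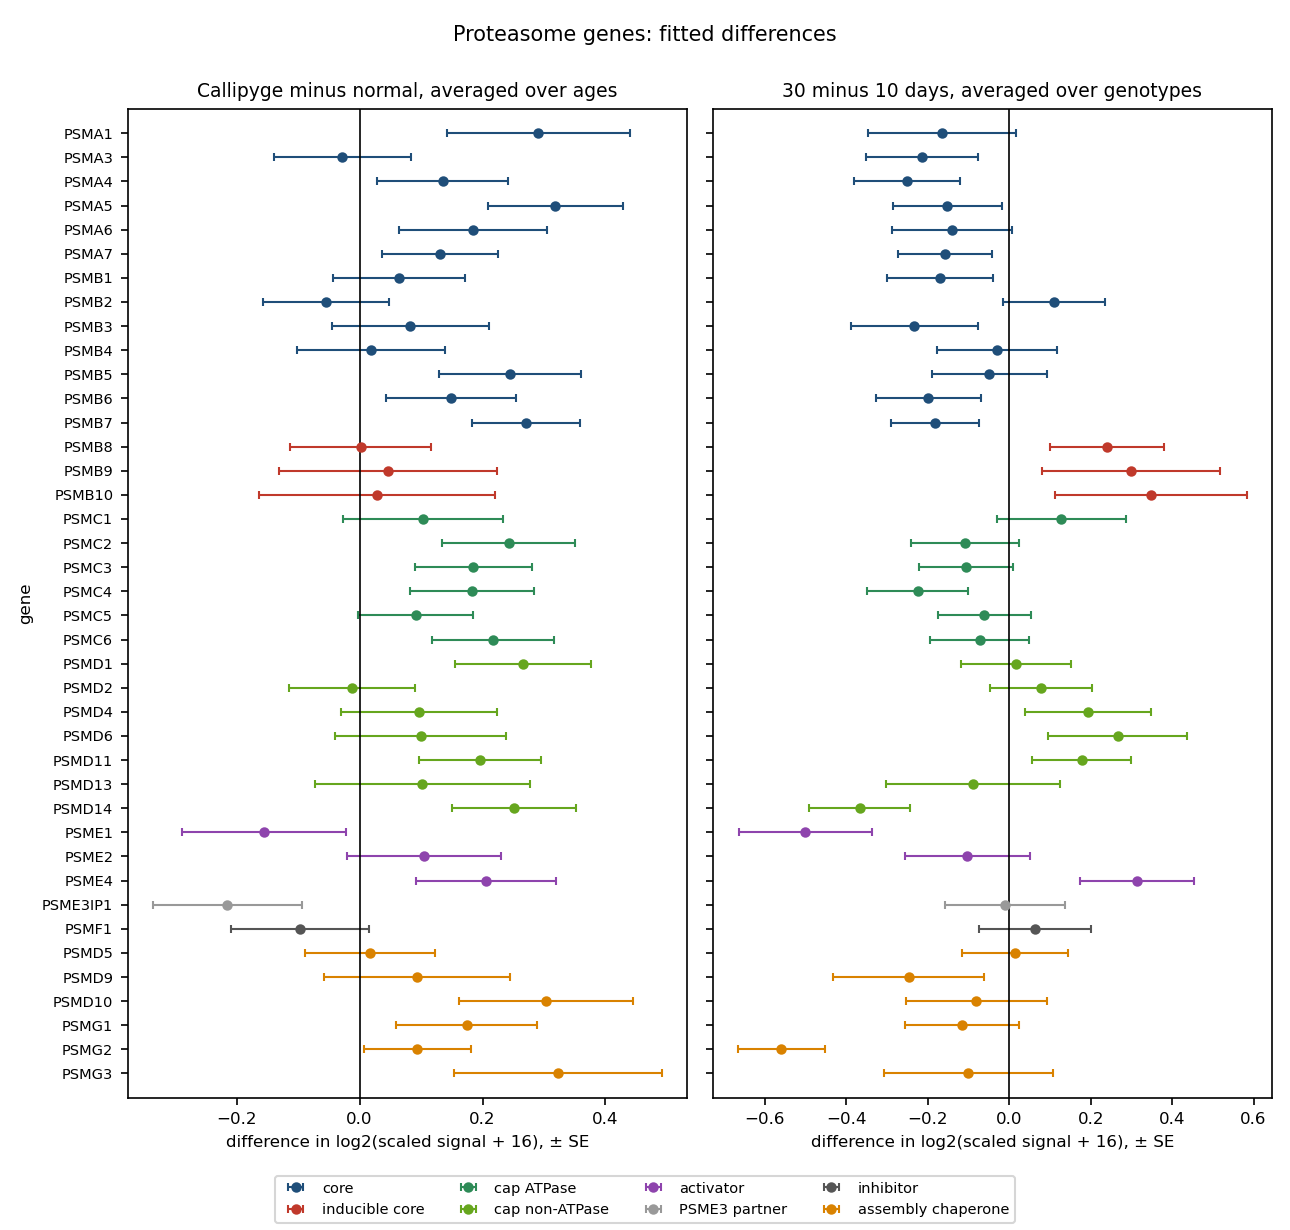
Log2 difference ± SE of each member, callipyge minus normal averaged over ages (left) and 30 minus 10 days averaged over genotypes (right). On the left 34 of 40 points lie above 0 and none passes the test, and on the right PSMG2 at -0.56 is the member that passes.

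The standard core showed a median genotype difference of 0.14, with 11 of 13 subunits above 0 and 0 called (log2). The core median was 0.062 without normal 30 days replicate 1 and 0.21 without normal 30 days replicate 2. The 6 alpha subunits had a median of 0.16 and the 7 beta subunits a median of 0.08. PSMA5, an alpha ring subunit, had scaled signals of 591 and 528 in callipyge lambs at 10 days, against 471 and 457 in normal lambs. At 20 days PSMA5 read 550 and 554 in callipyge lambs, against 364 and 528 in normal lambs. At 30 days it read 500 and 546 in callipyge lambs, against 402 and 396 in normal lambs. At each age both callipyge lambs were above both normal lambs, although the normal lamb at 528 lay within the callipyge range across ages. The difference averaged 0.32 ± 0.11 (SE, 1.25-fold) with an adjusted p of 0.257 by limma. The other alpha subunits lay between -0.03 (PSMA3) and 0.29 (PSMA1), with adjusted p of 0.477 for PSMA1.

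The cutting subunits PSMB6 and PSMB7 had the largest core differences at 30 days, ahead of PSMA1 at 0.57 (log2, adjusted p = 0.65 by limma). PSMB7, which carries the trypsin-like activity, had scaled signals of 1486 and 1547 in callipyge lambs at 10 days, against 1448 and 1587 in normal lambs. At 20 days PSMB7 read 1439 and 1665 in callipyge lambs, against 1215 and 1462 in normal lambs. At 30 days it read 1653 and 1640 in callipyge lambs, against 1054 and 1108 in normal lambs. Groups overlapped at 10 and 20 days, and at 30 days the normal lambs were the lowest of all 12 while the callipyge lambs were in their usual range. The differences were 0.00, 0.21 and 0.60 ± 0.15 at 10, 20 and 30 days (log2), the last with a 95% interval of 0.27 to 0.93, an unadjusted p of 0.00166 and an adjusted p of 0.329 by limma. Averaged over ages the difference was 0.27 ± 0.09, a 1.21-fold higher signal in callipyge lambs, with an adjusted p of 0.221.

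PSMB6, the caspase-like subunit, had scaled signals of 1158 and 1322 in callipyge lambs at 30 days, against 692 and 891 in normal lambs. At 10 days PSMB6 read 1173 and 1058 in callipyge lambs, against 1080 and 1232 in normal lambs, and at 20 days they were 1039 and 1212 in callipyge lambs, against 1116 and 1389 in normal lambs. As for PSMB7, the 2 normal lambs at 30 days were the lowest of all 12 and the other ages overlapped. The differences were -0.05, -0.15 and 0.64 ± 0.18 at 10, 20 and 30 days (log2), the last with an interval of 0.25 to 1.04 and an adjusted p of 0.401 by limma.

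PSMB5, the chymotrypsin-like subunit, had scaled signals of 726 and 915 in callipyge lambs at 30 days, against 627 and 574 in normal lambs. At 10 days PSMB5 read 662 and 811 in callipyge lambs, against 616 and 832 in normal lambs, and at 20 days 857 and 747 in callipyge lambs, against 609 and 716 in normal lambs. The callipyge lambs were above both normal lambs at 20 and 30 days and overlapped them at 10 days. The differences were 0.03, 0.27 and 0.43 ± 0.20 at 10, 20 and 30 days (log2), the last with an adjusted p of 0.652 by limma. None of these single-age differences passed the adjusted test.

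**Figure D3:**
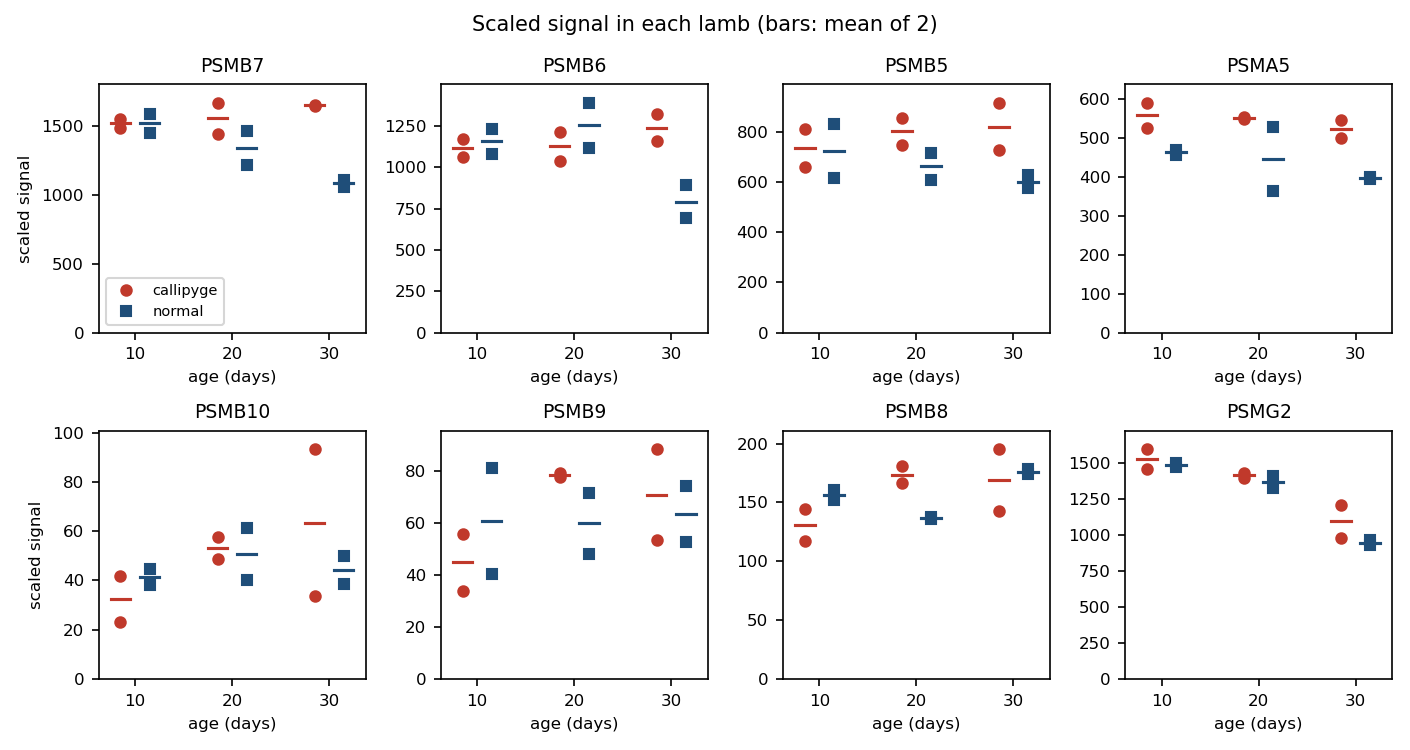
Scaled signal of 8 members in each lamb (points), by age with callipyge left of normal, with bars at the mean of the 2 lambs. For PSMB7 and PSMB6 both normal lambs at 30 days lie below every other lamb, and for PSMG2 all 4 lambs at 30 days lie below all lambs at 10 days.

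Among the beta subunits without a cutting site, PSMB2 was below normal at every age, at -0.08, -0.06 and -0.02 for 10, 20 and 30 days, and its other probe set gave 0.08 averaged over ages with an adjusted p of 0.874, so both lay within their errors of 0. PSMB3 was at -0.12 and -0.07 at 10 and 20 days and at 0.43 ± 0.22 at 30 days with an adjusted p of 0.697 (log2). PSMB1 and PSMB4 were at -0.01 and 0.04 at 30 days.

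The median genotype difference of the core was 0.00 at 10 days, 0.13 at 20 days and 0.34 at 30 days (log2). Core subunits above 0 numbered 7, 9 and 11 of 13 at these ages. In 7 of 13 core subunits (53.8%) the signed genotype difference moved upward at each later age, against 35% of all 40 members and 16.2% of all tested probe sets. The 7 include PSMB2, which stayed below 0, and PSMB3, which was below 0 at 10 and 20 days. The medians of all tested probe sets were -0.01, 0.01 and -0.02. The direct test of whether genotype differences changed with age, an F test of the interaction by limma, called 0 members (0% of all tested). At an unadjusted p below 0.05 it gave 2 members, PSMB6 (0.0176) and PSMB7 (0.0438), against 4.75% of all tested probe sets, and both had an adjusted p of 0.992. The median core signal relative to each gene's own mean was -0.12 and 0.16 in the callipyge lambs at 30 days, against -0.38 and -0.06 in the normal lambs, so that 1 callipyge lamb lay below 1 normal lamb.

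The inducible subunits PSMB8, PSMB9 and PSMB10 replace PSMB5, PSMB6 and PSMB7 in the form of the core that interferon gamma induces. Their genotype differences were 0.00 ± 0.11, 0.05 ± 0.18 and 0.03 ± 0.19 for PSMB8, PSMB9 and PSMB10 averaged over ages (log2). Their intervals were -0.25 to 0.25, -0.34 to 0.43 and -0.39 to 0.44, with adjusted p of 0.997, 0.953 and 0.976 by limma. All 3 were below normal at 10 days (-0.24, -0.31 and -0.27) and above it at 20 days (0.31, 0.33 and 0.06), and none of these differences passed.

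PSMB8 had scaled signals of 117 and 145 in callipyge lambs at 10 days, against 152 and 161 in normal lambs. At 20 days PSMB8 read 166 and 181 in callipyge lambs, against 137 and 136 in normal lambs, and at 30 days 143 and 195 in callipyge lambs, against 174 and 178 in normal lambs. The genotypes did not overlap at 10 and 20 days, in opposite directions, and overlapped at 30 days. PSMB9, which lies beside PSMB8 in the sheep annotation with the peptide transporter gene TAP1 between them, had 33.9 and 55.8 in callipyge lambs at 10 days, against 40.3 and 81.2 in normal lambs. At 20 days PSMB9 had 77.6 and 79.4 in callipyge lambs, against 71.7 and 48.3 in normal lambs, and at 30 days 53.5 and 88.3 in callipyge lambs, against 52.7 and 74.2 in normal lambs. PSMB10 ran from 23.2 to 93.2 with a median of 45.2 in callipyge lambs and from 38.3 to 61.3 with a median of 42.6 in normal lambs. Its lowest and highest lambs were both callipyge, at 10 days and at 30 days, and the genotypes overlapped.

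With age, averaged over genotypes, the inducible subunits and the standard core ran in opposite directions in their medians. From 10 to 30 days the median difference was 0.30 for the inducible subunits and -0.16 for the standard core, against 0.00 for all tested probe sets (log2). The inducible median was 0.17 without callipyge 10 days replicate 1 and 0.14 without callipyge 30 days replicate 2, and the core median was -0.27 without normal 30 days replicate 2. Without both replicate 2 arrays at 30 days they were 0.054 and -0.33. PSMB8 gave 0.24 ± 0.14, PSMB9 0.30 ± 0.22 and PSMB10 0.35 ± 0.24, with adjusted p of 0.431, 0.547 and 0.515 by limma. Their standard counterparts PSMB5, PSMB6 and PSMB7 gave -0.05 ± 0.14, -0.20 ± 0.13 and -0.18 ± 0.11, with adjusted p of 0.909, 0.491 and 0.433. In callipyge lambs these counterparts went from 9.55, 10.14 and 10.58 to 9.70, 10.29 and 10.70 (mean log2). In normal lambs they went from 9.52, 10.19 and 10.58 to 9.27, 9.65 and 10.10, so they fell in normal lambs only. PSMB8, PSMB9 and PSMB10 went from 7.19, 5.90 and 5.57 to 7.52, 6.41 and 6.20 in callipyge lambs. In normal lambs the inducible subunits went from 7.43, 6.21 and 5.84 to 7.59, 6.30 and 5.91. The inducible median minus the core median per lamb was -0.23 ± 0.34 at 10 days, -0.05 ± 0.20 at 20 days and 0.17 ± 0.14 at 30 days (SD, n = 4 each), and the lambs of these ages overlapped. The lowest of the 12 values, -0.72, was callipyge 10 days replicate 1.

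Genes of interferon response and antigen presentation were measured beside them. Of 9 such genes their summed signal ran from 716 to 1111 at 10 days, 1034 to 1326 at 20 days and 851 to 1464 at 30 days. The lowest sum, 716, was again callipyge 10 days replicate 1. From 10 to 30 days all 7 tested genes of the list had a difference above 0, with a median of 0.32 and 0 called, and TAP1, TAP2 and B2M stood at 0.32, 0.36 and 0.32 (log2). By genotype, averaged over ages, their median was -0.16, with 1 of 7 tested genes above 0 (47.5% of all tested) and 0 called. Their sums were 716 to 1237 in callipyge lambs and 787 to 1464 in normal lambs. Immune cell markers summed to 286 to 428 at 10 days, 317 to 510 at 20 days and 379 to 480 at 30 days over 10 genes, with 7 of 8 tested genes above 0 from 10 to 30 days and 0 called. No immune marker was listed at 0. The part of immune cells in the values of the inducible subunits was not tested.

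Most cap subunits lay above normal in callipyge lambs at each age, by small amounts, and none passed. Averaged over ages, 12 of 13 cap subunits lay above 0, with a median of 0.18 (log2), or 0.11 without normal 30 days replicate 1. The medians were 0.19 at 10 days, 0.10 at 20 days and 0.16 at 30 days, with 12, 11 and 11 of 13 above 0. All 6 cap ATPases, which unfold substrates, lay above 0 averaged over ages. Their medians were 0.15, 0.08 and 0.23 at 10, 20 and 30 days. In 2 of 6 ATPases and 0 of 7 other cap subunits the signed difference moved upward at each later age.

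PSMC2 had the lowest p of the ATPases. Its scaled signals ran from 1617 to 1826 with a median of 1770 in callipyge lambs, and from 1146 to 1728 with a median of 1483 in normal lambs. In 5 of 6 callipyge lambs PSMC2 was above both normal lambs of its age, and the genotypes overlapped. The difference was 0.24 ± 0.11 with an adjusted p of 0.409 by limma, and its other probe set gave 0.22 with an adjusted p of 0.571. PSMC3 was the ATPase with the largest value at 30 days, with signals of 1654 and 1728 in callipyge lambs, against 1129 and 1395 in normal lambs, a difference of 0.43 ± 0.16 with an adjusted p of 0.595. At 10 and 20 days PSMC3 stood at 0.06 and 0.07.

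PSMC6 gave 2 different pictures by probe set. Its brighter probe set had signals of 914 and 875 in callipyge lambs at 10 days, against 673 and 729 in normal lambs, a difference of 0.35 ± 0.17 at that age with an adjusted p of 0.596 by limma. Averaged over ages the brighter probe set gave 0.22 ± 0.10 with an adjusted p of 0.415, and the other gave -0.13 with an adjusted p of 0.843. Between 10 and 30 days the brighter gave -0.07 ± 0.12 and the other 0.97 ± 0.22 with an adjusted p of 0.0408. The other probe set read 141 and 243 in callipyge lambs at 10 days and 175 and 299 in normal lambs, and 400 and 542 in callipyge lambs at 30 days and 433 and 332 in normal lambs. All lambs at 30 days were above all lambs at 10 days on that probe set, so a change of PSMC6 with age rests on which probe set is read. This call was lost in 8 of 12 fits that left out 1 array, with adjusted p of 0.0615 to 0.151, which were those without callipyge 10 days replicates 1 and 2, callipyge 20 days replicates 1 and 2, callipyge 30 days replicate 2, normal 10 days replicate 1 and normal 30 days replicates 1 and 2. It was also lost without both replicate 2 arrays at 30 days (adjusted p 0.149), without the filter (0.0796), with array weights (0.0549) and with unshared variances (0.193).

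Among the other cap subunits, PSMD14, the enzyme that cuts ubiquitin off the substrate, had scaled signals of 1154 and 1013 in callipyge lambs at 10 days, against 813 and 960 in normal lambs. At 20 days PSMD14 read 869 and 937 in callipyge lambs, against 747 and 865 in normal lambs, and at 30 days 759 and 929 in callipyge lambs, against 717 and 640 in normal lambs. Both callipyge lambs were above both normal lambs at each age, narrowly at 20 days, and lambs of 10 and 30 days overlapped. The genotype difference was 0.25 ± 0.10 with a 95% interval of 0.03 to 0.47 and an adjusted p of 0.341 by limma. The difference from 10 to 30 days was -0.37 ± 0.12 with an adjusted p of 0.158.

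PSMD1, a large scaffold subunit of the cap base, ran from 378 to 459 with a median of 405 in callipyge lambs and from 281 to 401 with a median of 346 in normal lambs. The genotypes overlapped, through a normal lamb of 30 days at 401. PSMD1 stood at 0.27 ± 0.11 averaged over ages with an adjusted p of 0.357 by limma, and at 0.41 ± 0.19 at 20 days with an adjusted p of 0.806. PSMD13, a lid subunit near the dim end, had signals of 60.5 and 45.0 in callipyge lambs at 30 days, against 51.8 and 78.4 in normal lambs, a difference of -0.23 ± 0.30 with an adjusted p of 0.906. PSMD2, the second large scaffold subunit, stood at -0.01 and PSMD6, a lid subunit, at 0.27 ± 0.17 from 10 to 30 days with an adjusted p of 0.48. The ubiquitin receptor PSMD4 lies near PSMB4 in the sheep annotation, with 4 genes between them.

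**Figure D4:**
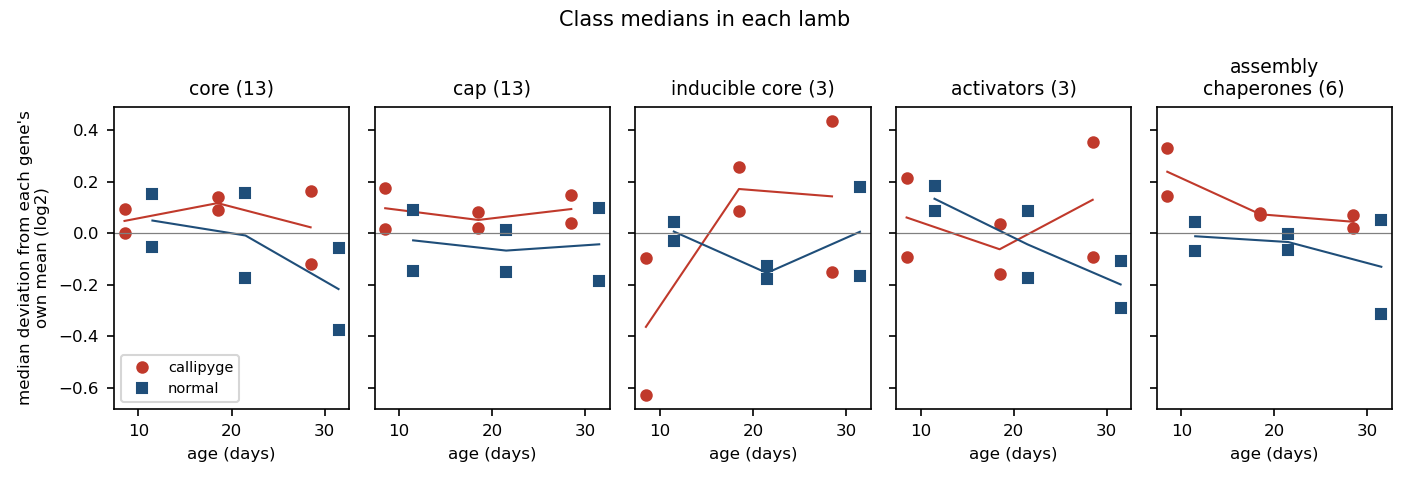
Median log2 signal of the members of each class relative to their own means, per lamb, with callipyge (circles) left of normal (squares) at 10, 20 and 30 days and lines joining the group means. Core medians of normal lambs at 30 days are -0.38 and -0.06, against -0.12 and 0.16 in callipyge lambs, and the inducible core spans -0.63 to 0.44.

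Averaged over ages, the medians of core, cap and activators were 0.14, 0.18 and 0.11 for callipyge against normal lambs (log2). The activator median, over 3 genes, was 0.015 without callipyge 30 days replicate 2 and 0.20 without callipyge 30 days replicate 1, and -0.0061 without both replicate 2 arrays at 30 days. The cap median minus the core median per lamb was 0.02 ± 0.09 in callipyge lambs and 0.01 ± 0.14 in normal lambs (SD, n = 6 each). By age the same gap was -0.01 ± 0.08 at 10 days, -0.06 ± 0.07 at 20 days and 0.12 ± 0.09 at 30 days (SD, n = 4 each), and the lambs of these ages overlapped. No test of a class was made.

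The activators did not share a direction. PSME1 and PSME2, which together form an interferon-inducible ring that opens the core, are neighbours in the sheep annotation with EMC9 between them. PSME1 had signals of 431 and 545 in callipyge lambs at 10 days, against 739 and 563 in normal lambs, a difference of -0.40 ± 0.23 with an adjusted p of 0.682 by limma. At 20 days PSME1 read 472 and 401 in callipyge lambs, against 515 and 406 in normal lambs, and at 30 days 399 and 384 in callipyge lambs, against 481 and 315 in normal lambs. Both callipyge lambs were below both normal lambs at 10 days, and the genotypes overlapped at 20 and 30 days. Averaged over ages PSME1 stood at -0.16 ± 0.13 with an interval of -0.44 to 0.13 and an adjusted p of 0.717, and it ran from -0.25 without normal 30 days replicate 2 to -0.058 without normal 30 days replicate 1. The change between 10 and 30 days was -0.50 ± 0.16, an interval of -0.85 to -0.15 and an unadjusted p of 0.00925, and with an adjusted p of 0.147 it did not pass.

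PSME2 had signals of 226 and 278 in callipyge lambs at 10 days, against 263 and 282 in normal lambs, and 253 and 228 in callipyge lambs at 20 days, against 263 and 211 in normal lambs. At 30 days PSME2 read 230 and 343 in callipyge lambs, against 219 and 199 in normal lambs. The genotypes overlapped at 10 and 20 days, and at 30 days both callipyge lambs were above both normal lambs. The difference at 30 days was 0.40 ± 0.22 with an adjusted p of 0.713 by limma, and averaged over ages it was 0.11 ± 0.13 with an adjusted p of 0.815. Between 10 and 30 days PSME2 gave -0.10 ± 0.15 with an adjusted p of 0.80. PSME1, PSME2 and the 3 inducible core subunits are all known as interferon-inducible genes. Averaged over genotypes, from 10 to 30 days the first pair was below 0 and these core subunits were above 0, none past the test.

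PSME4, a single-chain activator found in the nucleus, had signals of 593 and 690 in callipyge lambs at 10 days, against 485 and 448 in normal lambs. At 20 days PSME4 read 620 and 529 in callipyge lambs, against 549 and 534 in normal lambs, and at 30 days 655 and 761 in callipyge lambs, against 549 and 794 in normal lambs. The genotypes did not overlap at 10 days and overlapped at 20 and 30 days. The difference was 0.44 ± 0.20 at 10 days with an adjusted p of 0.546 by limma, and 0.21 ± 0.11 averaged over ages with an adjusted p of 0.516. Between 10 and 30 days PSME4 gave 0.31 ± 0.14 with an interval of 0.01 to 0.62 and an adjusted p of 0.286, and from 20 to 30 days 0.29 ± 0.14 with an adjusted p of 0.595.

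The inhibitor PSMF1 had signals of 97.2 and 82.1 in callipyge lambs at 10 days, against 118 and 125 in normal lambs. At 20 days PSMF1 read 123 and 131 in callipyge lambs, against 121 and 123 in normal lambs, and at 30 days 100 and 124 in callipyge lambs, against 97.8 and 119 in normal lambs. Callipyge lambs were below both normal lambs at 10 days and narrowly above them at 20 days, and the genotypes overlapped at 30 days. PSMF1 stood at -0.38 ± 0.19 at 10 days with an adjusted p of 0.613 by limma, and at -0.10 ± 0.11 averaged over ages with an adjusted p of 0.808. PSME3IP1, the partner protein of an activator, ran from 61.7 to 83.3 with a median of 77.0 in callipyge lambs and from 74.3 to 110 with a median of 87.2 in normal lambs. Its genotypes overlapped, and the difference was -0.39 ± 0.21 at 10 days, 0.04 at 20 days and -0.29 ± 0.21 at 30 days, with -0.21 ± 0.12 and an adjusted p of 0.523 averaged over ages. With PSME3IP1 counted among the activators, their median genotype difference was -0.03 in place of 0.11 (log2).

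All 6 assembly chaperones lay above 0 in callipyge lambs averaged over ages, with a median of 0.13 and 0 called (log2). Their medians were 0.27, 0.14 and 0.12 at 10, 20 and 30 days. PSMD10, a chaperone of the cap base, had signals of 88.7 and 82.1 in callipyge lambs at 10 days, against 67.0 and 53.0 in normal lambs, a difference of 0.42 ± 0.25 with an adjusted p of 0.686 by limma. Both callipyge lambs were above both normal lambs at 10 days. PSMG3, a chaperone of the core, ran from 50.1 to 80.4 with a median of 60.7 in callipyge lambs and from 28.4 to 67.2 with a median of 50.1 in normal lambs, overlapping, with a difference of 0.32 ± 0.17 and an adjusted p of 0.488. PSMD9 gave -0.19 ± 0.26 at 30 days with an adjusted p of 0.914, and PSMD5 gave -0.12 ± 0.18 at 20 days with an adjusted p of 0.97.

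With age, 1 of 40 members passed the test. PSMG2, which pairs with PSMG1 to build the alpha ring, fell from 10 to 30 days. It had signals of 1596 and 1459 in callipyge lambs at 10 days and 1471 and 1500 in normal lambs at that age. At 20 days it had 1433 and 1398 in callipyge lambs and 1330 and 1412 in normal lambs. At 30 days it had 982 and 1209 in callipyge lambs and 934 and 964 in normal lambs. All 4 lambs at 30 days were below all 8 younger lambs, and all 4 at 20 days were below all 4 at 10 days.

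From 10 to 30 days, averaged over genotypes, PSMG2 fell by 0.56 ± 0.11 on the log2 scale, with a 95% interval of -0.79 to -0.33 and an adjusted p of 0.0227 by limma. It was the only member called lower (1.26% of all tested), and 0 members rose (0.575%). From 20 to 30 days it gave -0.45 ± 0.11 with an adjusted p of 0.158. The call was lost in 5 of 12 fits that left out 1 array: without callipyge 10 days replicate 1 the adjusted p was 0.0785, without replicate 2 it was 0.0678, without normal 10 days replicate 1 it was 0.0855, without replicate 2 it was 0.066, and without normal 30 days replicate 2 it was 0.0541. The fall itself stayed between -0.63 and -0.49 in all 12 such fits, and was -0.64 with an adjusted p of 0.0668 without both replicate 2 arrays at 30 days. Without scaling PSMG2 gave -0.26 with an adjusted p of 0.482, where all tested probe sets had a median of 0.24. Its partner PSMG1 had 276 and 230 in callipyge lambs and 196 and 200 in normal lambs at 10 days, and 196 and 220 in callipyge lambs and 215 and 191 in normal lambs at 30 days, and these ages overlapped.

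Over all members, averaged over genotypes, 27 of 40 lay below 0 from 10 to 30 days and 13 above. Of all tested probe sets 50.4% were above 0. The median was -0.09, against 0.00 for all tested probe sets (log2). It ran from -0.12 to -0.039 with 1 array left out, and was nearest to 0 without callipyge 30 days replicate 1 (-0.042), normal 10 days replicate 2 (-0.045) or normal 30 days replicate 1 (-0.039). At an unadjusted p below 0.05, 3 members were lower (8.74% of all tested), namely PSMG2, PSME1 and PSMD14, and 1, PSME4, was higher (7.62%). The lambs of 30 days lay wholly below those of 10 days in 1 member, PSMG2 (4.31%), and wholly above in 0 (3.53%). The core accounted for 12 of the 27, all but PSMB2 at 0.11. Cap subunits were divided, with 6 above 0 and 7 below, and a median of -0.06, which turned to 0.0042 without normal 10 days replicate 1 and to 0.030 without normal 30 days replicate 1.

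The step from 10 to 20 days called 0 members in either direction (0% of all tested), with 0 at an unadjusted p below 0.05 (3.81% higher and 4.61% lower). The median of the members was -0.01, and 20 lay above 0 (46.6% of all tested). The members with the smallest p were at 0.37 ± 0.24 for PSMB10, 0.34 ± 0.22 for PSMB9 and 0.22 ± 0.14 for PSMF1, and at -0.37 ± 0.17 for PSMD10, -0.32 ± 0.16 for PSME1 and -0.22 ± 0.12 for the ATPase PSMC4, with adjusted p of 0.594 to 0.716 by limma. The lambs of 20 days lay wholly below those of 10 days in 1 member, PSMG2 (2.6% of all tested), and wholly above in 0 (2.17%).

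The step from 20 to 30 days called 0 members higher (0.00833% of all tested) and 0 lower (0%). At an unadjusted p below 0.05, 1 member was lower, PSMG2 (4.87%), and 0 were higher (4.12%). Averaged over genotypes, all 13 core subunits lay below 0 at this step, with a median of -0.16. All tested probe sets had a median of 0.02, and 54% lay above 0. In callipyge lambs alone PSMA1, PSMA3, PSMB3, PSMB5, PSMB6 and PSMB7 were higher at 30 than at 20 days. Core medians per lamb at 20 days were 0.09 and 0.14 in callipyge lambs and -0.17 and 0.15 in normal lambs. At 30 days they were -0.12 and 0.16 in callipyge lambs and -0.38 and -0.06 in normal lambs, so the ages overlapped. Of the other cap subunits 6 of 7 lay above 0, with a median of 0.09. PSMB1 and PSMB6 both gave -0.26 ± 0.13, with adjusted p of 0.607 and 0.606, and PSMD10 gave 0.29 ± 0.17 and PSMD6 0.22 ± 0.17, with adjusted p of 0.675 and 0.776. Counting both steps, 11 members had a value below 0 at each (21.1% of all tested) and 6 a value above 0 at each (21.6%), which counts signs and not tests.

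At single ages the genotype difference called 0 members. At 10 days 0 were higher (0.0416% of all tested) and 0 lower (0.025%), with 26 of 40 above 0 (48.6%) and a median of 0.07. At an unadjusted p below 0.05, 1 was higher, PSME4 (4.34%), and 0 were lower (4.48%). At 20 days 0 were higher (0.0333%) and 0 lower (0%), with 32 above 0 (51.4%), a median of 0.10, 1 higher at an unadjusted p below 0.05, PSMD1 (3.04%), and 0 lower (3.11%). At 30 days 0 were higher (0.05%) and 0 lower (0%), with 33 above 0 (47%), a median of 0.15, 4 higher at an unadjusted p below 0.05, PSMB7, PSMB6, PSMC3 and PSMA1 (3.63%), and 0 lower (3.97%). The median at 10 days turned to -0.07 without normal 10 days replicate 1 and was 0.15 without normal 10 days replicate 2. The median at 20 days was 0.045 without normal 20 days replicate 1 and 0.19 without normal 20 days replicate 2. The median at 30 days was 0.05 without callipyge replicate 2, 0.26 without callipyge replicate 1, 0.06 without normal replicate 1 and 0.29 without normal replicate 2. At 20 days PSMA5 gave 0.32 ± 0.19 and PSMB8 0.31 ± 0.20, and PSMA3 gave -0.16 ± 0.19, with adjusted p of 0.871, 0.889 and 0.961 by limma. The PSMA5 value was 0.061 without normal 20 days replicate 1 and 0.58 without normal 20 days replicate 2.

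Other genes of the ubiquitin-proteasome route were read from a list of 37 symbols, of which 23 were measured, all of them tested. Averaged over ages 1 rose in callipyge lambs (0.566% of all tested) and 0 fell (0.316%). Of the 23, 18 lay above 0 (47.5% of all tested), with a median of 0.07 (log2). The gene that rose was VCP, the ATPase that pulls ubiquitin-tagged proteins out of complexes and membranes and hands them to the proteasome. VCP had signals of 1408 and 1333 in callipyge lambs at 10 days, against 788 and 964 in normal lambs. At 20 days VCP read 1237 and 1176 in callipyge lambs, against 868 and 952 in normal lambs, and at 30 days 1478 and 1393 in callipyge lambs, against 1000 and 1149 in normal lambs. Every callipyge lamb was above every normal lamb, at any age.

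The difference in VCP was 0.49 ± 0.09, a 1.40-fold higher signal in callipyge lambs, with a 95% interval of 0.29 to 0.68 and an adjusted p of 0.028 by limma. By age it was 0.64, 0.40 and 0.42 at 10, 20 and 30 days. The size stayed between 0.44 and 0.53 when any 1 array was left out, but the call held in only 3 of these 12 fits, those without normal 10 days replicate 2, normal 30 days replicate 1 or normal 30 days replicate 2. In the other 9 it was lost, with an adjusted p of up to 0.0919. It was also lost without the filter (0.0524), without scaling (0.27, adjusted p 0.424), with unshared variances (0.118) and without both replicate 2 arrays at 30 days (0.057).

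Other genes of that list did not pass. BAG3, a chaperone cofactor that routes damaged muscle proteins to degradation, stood at 0.49 ± 0.12 with an adjusted p of 0.0984 by limma. USP14, which trims ubiquitin at the cap, stood at 0.25 ± 0.10 with an adjusted p of 0.354, and UBA1, the enzyme that activates ubiquitin, at 0.25 with an adjusted p of 0.415. UFD1, a cofactor of VCP, stood at -0.26 with an adjusted p of 0.468, and POMP, which helps mature the core, at -0.12 with an adjusted p of 0.653. NFE2L1, the transcription factor known to induce proteasome genes, stood at 0.30 with an adjusted p of 0.653. From 10 to 30 days 0 of the 23 passed the test (0.575% of all tested higher and 1.26% lower). Of these genes 15 lay above 0 (50.4% of all tested), with a median of 0.18. The smallest p above 0 belonged to UBQLN4 at 0.51 ± 0.15 and RAD23B at 0.38 ± 0.11, with adjusted p of 0.104 and 0.108 by limma. Below 0 it belonged to POMP at -0.22 ± 0.11, with an adjusted p of 0.314. FBXO32, a muscle ubiquitin ligase, had the value 0.75 ± 0.62 at that contrast with an adjusted p of 0.604.

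Markers of other cells were read beside the genotype difference of the members. Immune markers summed to 288 to 510 in callipyge lambs and 286 to 459 in normal lambs. Of 5 erythroid markers, with 2 tested, the sums were 107 to 161 in callipyge lambs and 142 to 262 in normal lambs, and both tested genes lay below 0. Endothelial markers summed to 1066 to 2024 in callipyge lambs and 1227 to 2215 in normal lambs over 6 genes, with 1 of 5 tested genes above 0. Fibroblast markers summed to 9257 to 12576 in callipyge lambs and 8967 to 15247 in normal lambs over 6 genes. The adipocyte and Schwann cell lists had 1 tested gene each, at -0.14 and -0.21, and the satellite cell list had 0. In each of these lists 0 genes were called, 0 were listed at 0 on any array, and their part in the members' difference was not tested.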

How the data were processed

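Total RNA of 12 lambs was hybridised to Affymetrix bovine arrays. The authors deposited 1 linear intensity for each probe set, computed by MAS5 in GCOS per the submitters' processing notes, whose version and scaling target are not given in the sources used here. Trimmed means (2% at each end) ran from 55.7 to 105.7, so each array was scaled to their mean, 79.2. Of 24128 probe sets, 112 controls were left out, and of 24016 those with a mean log2(scaled signal + 16) below the median, 5.25, leaving 12008. limma 3.58.1 in R 4.3.3 fitted 6 group means with a variance trend (6 residual and 6.93 prior degrees of freedom), with Benjamini-Hochberg adjustment over all 12008 and a threshold of 0.05. The interaction was an F test. Class and list values are counts and medians, without a test. P-values measure the spread between the lambs sampled.

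Symbols came from the array's annotation, where 13292 probe sets had 1 symbol and 86 several. Orders of neighbouring genes came from the RefSeq sheep annotation, which held all 40 members. Members named were, per contrast, those that passed and otherwise the 3 of smallest p either way, with the inducible subunits, their standard counterparts and all PSME genes whatever their values; pathway genes named were those that passed. Other genes and members with values in the text, such as BAG3, USP14 or PSMC2, were chosen after their values were seen. Members and lists were chosen with earlier results of these data known.

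Alternatives were other pseudocounts (1 and 64), the filter dropped or moved to the 75th percentile, no scaling, quantile normalization, median centring, robust variances, array weights, ordinary least squares, a threshold of 0.10, the mean of a gene's probe sets, a term for replicate number, each array left out in turn, and both arrays of replicate 2 at 30 days left out, which an earlier look at these data had found apart. The model was tried on simulated data with genotype differences larger than those of any member, so it says nothing on differences of the members' size. Plots used python 3.11.15 and matplotlib 3.10.9.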

Additional observations from a re-analysis of the deposited data

Results flagged for a closer look

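Outliers were looked for within the 6 callipyge and the 6 normal lambs, which join 3 ages by Dixon's criterion, the gap to the nearest lamb over the whole range at the 95% level. Of 42 such groups 3 held an outlier, where chance gives about 1 in 20. The median of the assembly chaperones relative to their own means was -0.31 in normal 30 days replicate 2, with the next lamb at -0.07. PSME4 stood at 9.66 in the same lamb, with the next at 9.14 (log2). PSMF1 stood at 6.83 in normal 30 days replicate 1, with the next at 7.07 (log2).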

How the results depend on the processing

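Without scaling, the median difference of callipyge against normal lambs was -0.088 for all members, -0.084 for the core and -0.037 for the cap. It was -0.10 for activators and -0.050 for assembly chaperones. Of 40 members 9 lay above 0, against 16.6% of all tested probe sets. The median of all members was -0.18 at 10, -0.19 at 20 and 0.060 at 30 days. The medians with age were 0.12 from 10 to 20, 0.10 from 20 to 30 and 0.19 from 10 to 30 days. The last came with 0.13 for the core, 0.24 for the cap, 0.18 for activators and 0.15 for chaperones. It had 36 members above 0, against 81.8% of all tested probe sets, and 0 members called. All tested probe sets moved along, to -0.19 by genotype and 0.24 from 10 to 30 days. The single call with age was also lost (0 members) with ordinary least squares, where PSMG2 had an adjusted p of 0.0527, and without both 30 day arrays found apart, where PSMG2 gave -0.64 with 0.0668. With the filter at the 75th percentile the chaperone median from 10 to 30 days was -0.34, on fewer genes.

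Values that changed sign without scaling were, by genotype, PSMB8 -0.20, PSMB6 -0.071, PSMB9 -0.13, PSMB10 -0.13, PSME2 -0.10 and PSME4 -0.013, and from 10 to 30 days PSMB5 0.25, PSMB6 0.10, PSMB7 0.12, PSME2 0.18 and PSME3IP1 0.24. PSME3IP1 gave 0.0081 with median centring. Without both 30 day arrays found apart the genotype values were -0.061 for PSMB8, -0.12 for PSMB10 and -0.0061 for PSME2, PSMD13 at 30 days was 0.17 and PSMB10 from 10 to 30 days was -0.0062. The cause was not tested.

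With 1 array left out at a time, members called from 10 to 30 days ran from 0 to 1. Medians ran from -0.067 to 0.15 for members at 10 days, 0.045 to 0.19 at 20 days, 0.054 to 0.29 at 30 days, 0.088 to 0.18 by genotype averaged over ages (core 0.062 to 0.21, cap 0.11 to 0.21, activators 0.015 to 0.20), -0.12 to -0.039 for members and -0.061 to 0.030 for the cap from 10 to 30 days, and -0.28 to -0.042 for chaperones from 10 to 30 days. Signs changed by genotype for PSMB8 (-0.066 to 0.070), PSMB9 (-0.084 to 0.18) and PSMB10 (-0.16 to 0.22), from 10 to 30 days for PSMB5 (-0.15 to 0.058), PSME2 (-0.24 to 0.032) and PSME3IP1 (-0.11 to 0.086), at 20 days for PSMB6 (-0.30 to 0.0077) and PSMA3 (-0.37 to 0.057), and at 30 days for PSMD9 (-0.43 to 0.059) and PSMD13 (-0.47 to 0.0099). None of these passed in the main setting.

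Of 1469 comparisons of a named gene with an alternative, 1391 kept direction and side of the threshold, 33 lost the call and 45 changed sign. All 33 belonged to PSMG2, VCP or the further PSMC6 probe set, the results called in the main setting. The other results had no call to lose. Several alternatives, such as another threshold or no filter, cannot move an estimate, so the 1391 does not measure how firm the results are. Same-numbered lambs were not treated as paired. Over 15 pairs of groups their deviations correlated at -0.06 to 0.11, which cannot show whether the lambs were matched in some way. A replicate block cannot move any difference here, because each group held 1 lamb of each replicate number, and only p-values could change. With the block the PSMG2 fall kept its call with an adjusted p of 0.0246 by limma and VCP with 0.0325, and no other call changed. With 2 lambs a group and intervals of about 0.24 either side, genotype differences of the size of the members' median are below what 1 gene can show here.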
